A study of Homo sapiens with 7 samples.

Results

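The mitochondrial ribosomal protein genes were taken as the genes whose symbol is MRPL or MRPS followed by a number, with an A, B or C after it where the family has one. The rule found 77 of the 20072 symbols in the table, 48 of the large subunit (MRPL) and 29 of the small subunit (MRPS). No measured value was used to choose them. All 77 reached a mean of 1 RPKM (a measure of reads corrected for the length of the exons and the depth of the library) in each of the 3 parameters, so no member was lost to the filter on low values. The values come from log-phase HCT116 cells, an established human colorectal carcinoma line, grown untreated in a serum-free medium with epidermal growth factor, insulin and transferrin. Transcription rate (TR) was read by GRO-seq in 2 libraries, mRNA abundance (RA) by RNA-seq in 3 and translation activity (TA) by sequencing polysome-bound mRNA in 2. In GRO-seq, nuclei are isolated and the transcripts that RNA polymerase is still elongating are labelled and sequenced. Polysome profiling sequences the mRNA that sediments with several ribosomes, here from cells given cycloheximide before lysis. According to the study's methods, mRNA was isolated with a kit for RA and TA, while the TR libraries hold run-on RNA. The 3 parameters therefore differ in the RNA they start from as well as in what they measure.

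Mitochondria have ribosomes of their own, which translate the few membrane proteins of the respiratory chain that mitochondrial DNA encodes. The ribosomal RNAs of this particle come from mitochondrial DNA, but every one of its proteins is encoded in the nucleus, translated on cytosolic ribosomes and imported. The small subunit binds the mitochondrial mRNA and holds the decoding centre. The large subunit joins amino acids and releases the chain through an exit tunnel that faces the inner membrane. Many of the proteins descend from bacterial ribosomal proteins, and others were added in the mitochondrial lineage. MRP symbols follow the first assignment of a protein to a subunit. MRPS18A and MRPS30 are now placed in the large subunit, and MRPS36 is no longer counted as a mitoribosomal protein.

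The libraries held 3391897 and 5629982 reads for TR, between 20299018 and 22532134 for RA, and 22421062 and 30805391 for TA, as worked out from the RPKM values. The member with the fewest reads, MRPS24, had 14 in the smallest library, and the median member had 139 there. Precision from read numbers covers counting error only. The study calls the libraries biological replicates, but the labels only number them and do not say that they came from separate cultures, so the p-values measure the spread between these libraries. Epithelial markers were present, with EPCAM, CDH1, KRT8, KRT18 and KRT19 at 47.1 to 977 RPKM in RA, but VIL1 (0.0118) and LGALS4 (0.0984) were near 0. Of 9 markers of other cells, COL1A1 (11.5) and ACTA2 (4.22) exceeded 1 RPKM and the rest lay at 0.155 or below. RPKM is a share of a library, and in bulk cells fewer cells that make an RNA and less of it per cell cannot be told apart.

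The level of the 77 genes rose against the other genes from TR to RA to TA. The median member stood at 27.9 and 36.4 RPKM in the TR libraries, at 43.2 to 46.9 in RA and at 61.6 and 64.4 in TA. The median expressed gene moved the other way, from 14.1 and 14.2 RPKM in TR to between 8.62 and 8.94 in RA and to 6.05 and 6.37 in TA. None of the 7 libraries broke this order between the parameters. As a share of all reads, the members took 0.393% and 0.445% of the TR libraries, 0.492% to 0.521% of the RA libraries, and 0.662% and 0.677% of the TA libraries. The shares of the 3 parameters did not overlap.

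**Figure D1:**
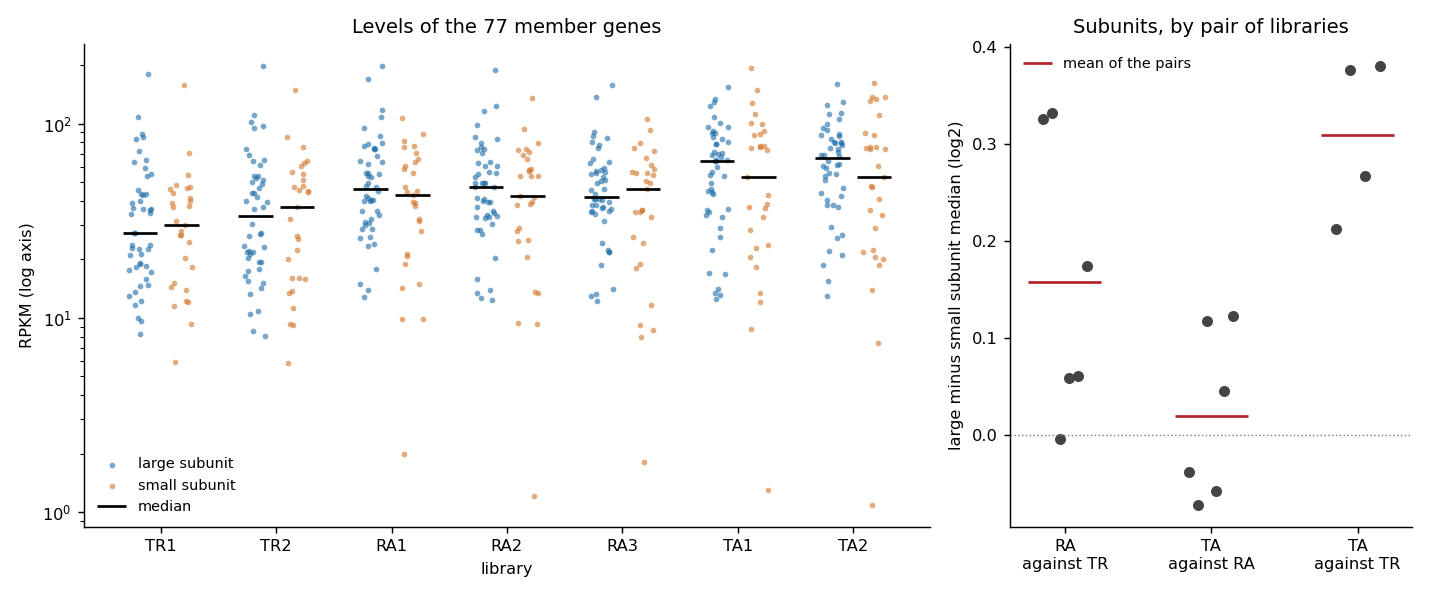
Left, RPKM of each of the 77 member genes on a log axis in the 7 libraries, with large subunit genes in blue, small subunit genes in orange and the median as a black bar. Right, the median log2 ratio of the large subunit minus that of the small subunit for each pair of libraries, with the mean of the pairs in red. The medians climb from TR to TA, and only for TA against TR do all pairs lie above 0, the 4 ranging from 0.21 to 0.38. The pairs share libraries.

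The members were not equal in level, but they lay closer together than all expressed genes did. Every member reached 1 RPKM in all 3 parameters, while an expressed gene needed it in only 1. Values for genes that reached it in all 3 are not given. Among the members the SD of log2 levels was 0.997 and 1.07 for TR, 1.02 to 1.06 for RA, and 1.18 and 1.14 for TA. Over all expressed genes it was 1.60 and 1.61, 2.74 to 2.77, and 2.98 and 2.99. The SD of all genes thus grew by more than 1 on the log2 scale from TR to RA, while that of the members stayed within 0.07. One gene, MRPS24, moved these values. Without it, a choice made after its value was seen, the SD among members was 0.97 and 1.04 in TR, 0.89 to 0.90 in RA and 0.96 to 1.03 in TA.

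Highest by mean RA was MRPL51, a large subunit protein without a bacterial counterpart, with 170.5, 189 and 138 RPKM in the RA libraries. It was followed by MRPL12 with 198, 123 and 159 RPKM, which overlap. MRPL12 is the protein of the flexible stalk that recruits translation factors. Of its exon bases, 69.5% are also exon of another coding gene in the annotation. MRPS15 (mean 109.9 ± 24.4, SD, n = 3), MRPS34 (90.3 ± 17.8) and MRPL18 (89.8 ± 16.5) came next, and the ranges of these 3 over the libraries overlapped. At the other end stood MRPL22 (13.0 ± 0.772), which lines the exit tunnel, MRPS18C (12.3 ± 2.70), MRPS14 (9.28 ± 0.585) and MRPS25 (9.06 ± 0.970). Lowest of all was MRPS24, which helps form the mRNA entry channel of the small subunit, at 1.98, 1.21 and 1.82 RPKM. Its RA lay apart from that of every other member. In the annotation, 90.9% of its exon bases are also exon of URGCP-MRPS24, a readthrough gene on the same strand that the table lists at 0 in all 7 libraries. Whether reads were lost to this overlap was not tested.

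Replicate libraries differed less for the members than for genes in general. For 2 libraries of the same parameter, the root mean square log2 difference was divided by the square root of 2. This SD of a single library was 0.19 to 0.29 over the members, against 0.33 to 0.50 over all expressed genes. The median member stood higher in level than the median expressed gene in every library, and values for genes of like level are not given. MRPL41 was the main exception. It stood at 118, 53.3 and 90.3 RPKM in RA and at 33.2 and 86.1 in TA, which overlap, and its ratios have the largest errors of any member.

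The promoters of the members are shown because each of 3 motifs described for genes of mitochondrial proteins can be read in them. RefSeq promoter sequences of 300 bases, 250 before and 50 after the annotated start, on GRCh38.p14, were found for 69 of the 77 members. The letters searched, on both strands, were GCGCA and GCGC with 1 base of any kind between them for NRF1, CCGGAAG for the ETS family, to which GABP belongs, and AANATGG followed directly by CGNC for YY1, where N is any base. NRF1 and GABP are known activators of nuclear genes for mitochondrial proteins. No matches of different motifs shared bases. The ETS letters were found in 28 of 69 member promoters (40.6%), against 17.98% of the promoters of expressed genes, 10.7% of all promoters and 32.4% of those of cytosolic ribosomal protein genes. The YY1 letters were found in 15 (21.7%), against 4.41% and 2.27%. For NRF1 the count was 8 (11.6%), against 10.9% and 6.28%, so its share was near that of expressed genes. Of the 37 ETS matches, 28 lay wholly before the annotated start, 17 of them within 50 bases of it. Of the 15 YY1 matches, 13 lay after the start, all as written. These letters contain ATG, and whether such matches are start codons was not tested. A match is a description of letters and no evidence of binding. The lines below give matches before the start for members whose values are described further on, 5′ to 3′ on the strand of the gene, with the match in capitals.
MRPL3, ETS, chr3:131502985-131503015, minus strand: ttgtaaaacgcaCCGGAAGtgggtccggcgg
MRPL27, ETS, chr17:50373218-50373248, minus strand: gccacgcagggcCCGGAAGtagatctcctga
MRPL47, ETS, chr3:179604659-179604689, minus strand: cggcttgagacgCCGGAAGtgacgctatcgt
MRPS18A, ETS, chr6:43687804-43687834, minus strand: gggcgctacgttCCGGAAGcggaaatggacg
MRPS34, ETS in reverse complement, chr16:1773187-1773217, minus strand: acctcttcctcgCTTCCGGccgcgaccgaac
MRPL14, NRF1, chr6:44127410-44127443, minus strand: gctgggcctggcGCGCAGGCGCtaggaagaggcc
MRPL17, NRF1, chr11:6683400-6683433, minus strand: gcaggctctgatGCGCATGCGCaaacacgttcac
MRPL57, NRF1, chr13:21176572-21176605, plus strand: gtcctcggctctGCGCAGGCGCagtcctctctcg
The NRF1 letters thus stood before genes whose later ratios lay at both ends, MRPL14 at the top and MRPL57 near the bottom of RA against TR. Median TR was 37.8 RPKM over the 28 members with the ETS letters and 24.1 over the 41 without. For YY1 it was 24.1 over 15 members and 36.4 over 54.

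The stability index, log2(RA/TR), sets the share of a gene in the mRNA pool against its share in transcription. An index of 0 means equal shares and is not the average gene, which lay below 0. Members were mostly above 0. The median index of the 77 was 0.38, while that of all 14305 expressed genes was -0.58, a difference of 0.96. A gene was called where limma gave an adjusted p under 0.05. Called above 0 were 34 members (44.2%), against 19.2% of all genes tested, and called below 0 were 9 (11.7%), against 48.0%. The remaining 34 did not pass the test. With each library centred on its median gene, 60 members were above, where 35.4% of all genes were, and 6 below, where 33.7% were. Over the 6 pairs of an RA and a TR library the median of the members lay between 0.27 and 0.64. The counts changed when TR replicate 1 was left out, and the shares over all genes are not given for that fit.

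The highest index belonged to MRPL14 (chr6:44081188-44095189, minus strand, hg19), a large subunit protein that also binds the silencing factor MALSU1. It stood at 13.0 and 15.1 RPKM in TR and at 73.6, 73.1 and 59.1 in RA, a log2 ratio of 2.28 (SE 0.17, adjusted p = 1.06e-05) or 4.84-fold. MRPS35 of the small subunit (chr12:27863755-27909228, plus strand) had 14.5 and 16.1 RPKM in TR and 60.1, 79.2 and 72.1 in RA, a log2 ratio of 2.19 (SE 0.17, adjusted p = 1.37e-05). In both genes every RA library was more than 3 times as high as either TR library. MRPL13 rose by 2.06 (SE 0.22), from 12.2 and 16.3 RPKM to between 49.3 and 75.0. MRPS27, a small subunit protein with pentatricopeptide repeats, rose by 1.94 (SE 0.19), from 18.2 and 13.8 RPKM to between 56.0 and 68.6. MRPL28 rose by 1.85 (SE 0.19). MRPL3, which lies near the peptidyl transferase centre, rose by 1.78 (SE 0.15), from 22.9 and 23.2 RPKM to 76.9, 83.2 and 77.6. MRPL1, of the mobile stalk at the tRNA exit, rose by 1.75 (SE 0.27) and MRPL21 by 1.74 (SE 0.22). In none of these 8 genes did the RA and TR libraries overlap, and each kept its call under every alternative tried.

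Of the 9 members called below 0, MRPS14 (chr1:174979925-174992561, minus strand, hg19) was the lowest. Its protein lies in the head of the small subunit near the decoding site. It stood at 41.3 and 51.5 RPKM in TR but at 9.87, 9.27 and 8.70 in RA, a log2 ratio of -2.30 (SE 0.17, adjusted p = 8.84e-06). MRPL53 (chr2:74699109-74699814, minus strand), from the base of the stalk, was the most transcribed member with 180.0 and 197 RPKM in TR, and had 35.4, 41.3 and 40.5 in RA, a ratio of -2.27 (SE 0.17, adjusted p = 8.5e-06). MRPL57 (chr13:21750797-21753223, plus strand) stood at 65.2 and 95.2 RPKM in TR and at 23.6, 15.8 and 18.6 in RA, a ratio of -2.04 (SE 0.27, adjusted p = 0.000234). In these genes no RA library came near a TR library. MRPS24 followed at -1.79 (SE 0.27), MRPS25 at -1.63 (SE 0.18) and MRPL17, of the exit tunnel, at -1.18 (SE 0.16). MRPS18C (-0.82, SE 0.22), MRPS34 (-0.78, SE 0.24) and MRPS18A (-0.56, SE 0.18) were also called below 0. Once libraries were centred none of them was called, with ratios of -0.15, -0.11 and 0.11. MRPS18C and MRPS34 were not called without either TR library. The strand setting of the counting is not given in the sources used here, so reads of overlapping genes cannot be told apart. In the annotation 99.2% of the exon bases of MRPL53 are also exon of another coding gene, CCDC142, and the share was 83.6% for MRPS18C, 60.6% for MRPS18A, 32.6% for MRPS34 and 18.6% for MRPS25. It was 0 for MRPS14, MRPL57 and MRPL17. Among the 55 members without such overlap 29 were called above 0 (52.7%) and 3 below (5.45%). Among the 22 with it 5 were called above (22.7%) and 6 below (27.3%), where all genes tested had 19.2% and 48.0%. The part of overlap in these values was not tested.

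**Figure D2:**
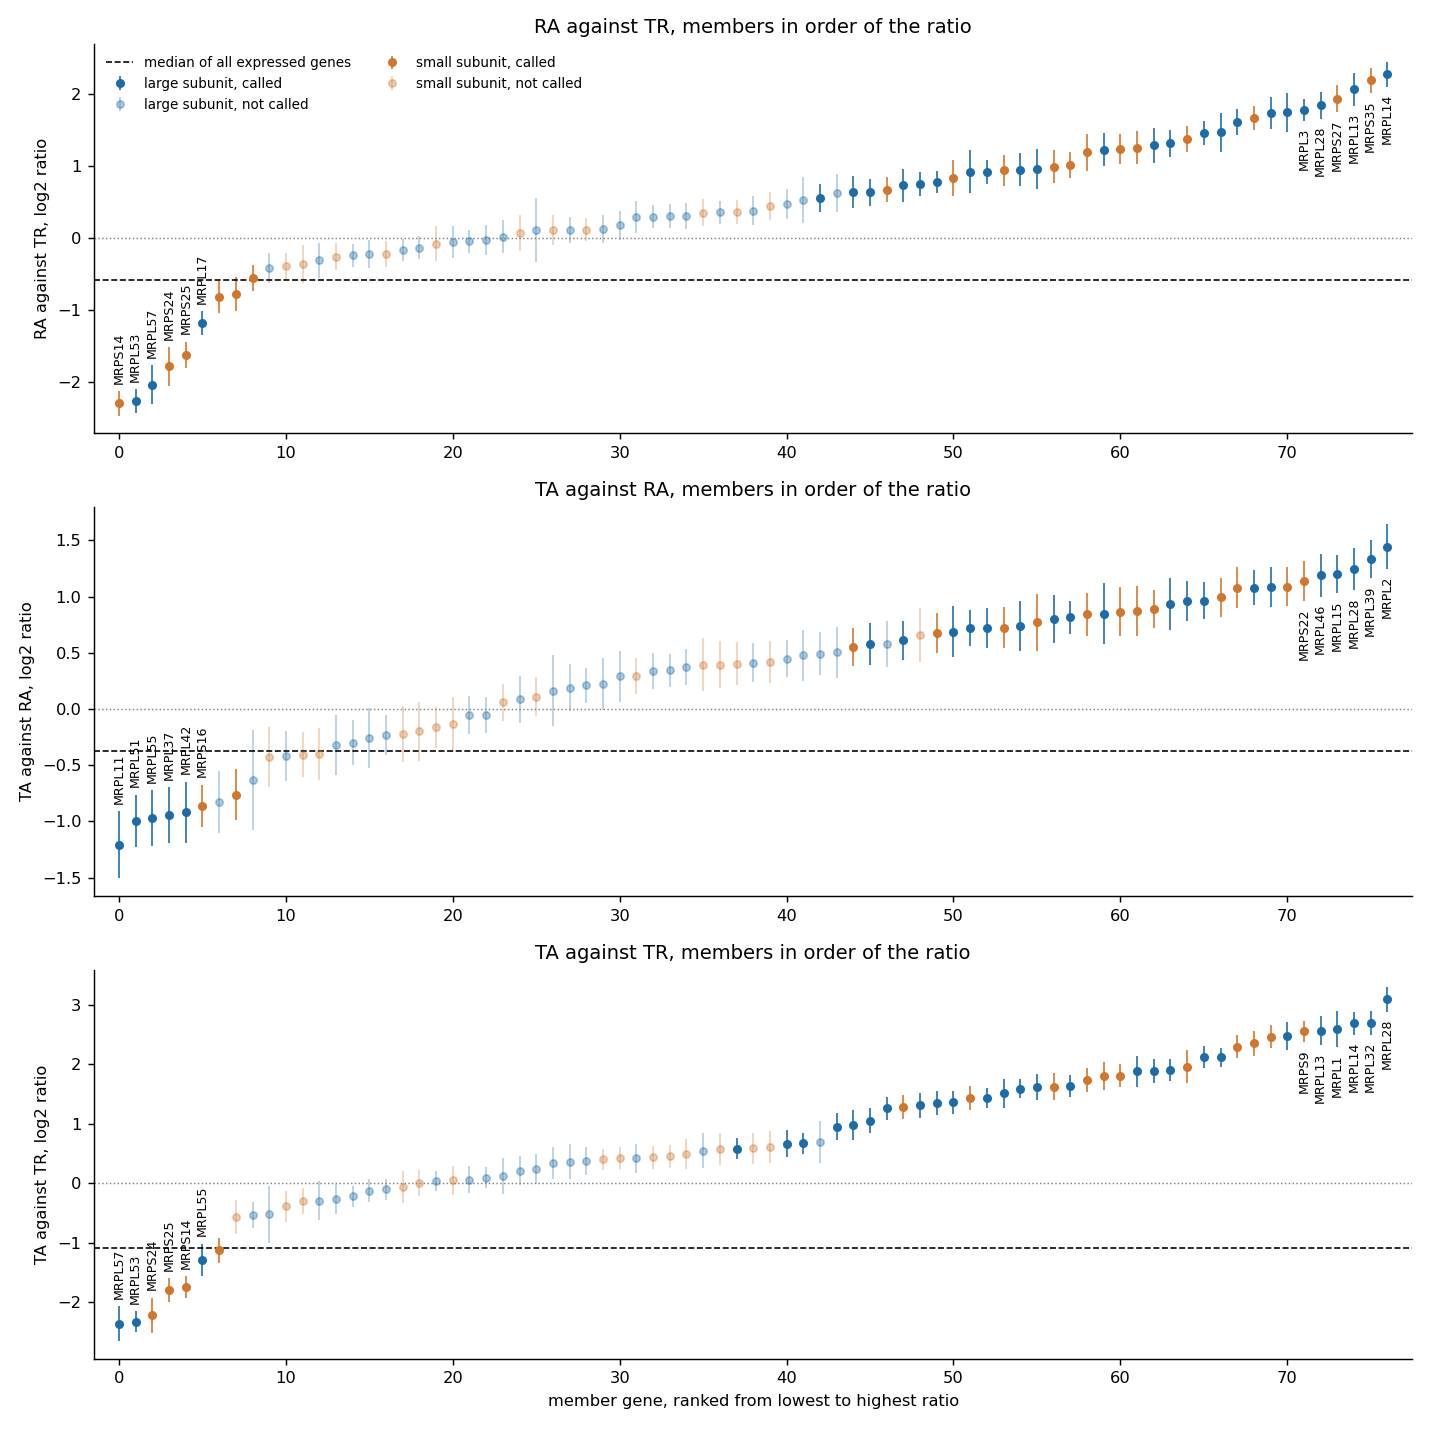
Log2 ratio of each of the 77 members in the 3 comparisons, in order of size, with bars of 1 standard error from limma. Filled colours mark genes called at an adjusted p under 0.05, the dashed line is the median of all expressed genes at -0.58, -0.37 and -1.08, and the dotted line is 0. Most members lie above both lines, and the steepest drop at the low end is that of RA against TR and of TA against TR.

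The translation index, log2(TA/RA), asks whether a mRNA is more frequent on polysomes than in the mRNA pool. The members again lay above the other genes, with a median of 0.41 against -0.37 over all expressed genes, a difference of 0.78. Called above 0 were 31 members (40.3%), against 6.66% of all genes, and called below 0 were 7 (9.09%), against 29.2%. The other 39 were not called. With centred libraries 52 members were above, where 19.0% of all genes were, and none was below, where 9.81% were. The median of the members lay between 0.35 and 0.56 over the 6 pairs of a TA and an RA library. The number of calls changed when single libraries were left out. Shares over all genes are not given for such fits, so a general loss of calls cannot be told apart from one among the members. Without TA replicate 1 there were 13 above and 0 below, without RA replicate 3 there were 17 and 3, and without either TR replicate 25 and 2. Fitting the RA and TA libraries alone also gave 25 and 2.

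MRPL2 (chr6:43021767-43027176, minus strand, hg19), a protein of the peptidyl transferase region, had the highest index. It stood at 47.4, 49.3 and 45.6 RPKM in RA and at 129 and 129.8 in TA, a log2 ratio of 1.45 (SE 0.20, adjusted p = 0.00347). MRPL39 stood at 25.6, 20.2 and 21.9 RPKM in RA and at 54.5 and 59.3 in TA, a ratio of 1.33 (SE 0.17, adjusted p = 0.00312). MRPL28 rose by 1.25 (SE 0.19), from between 32.8 and 40.6 RPKM to 84.8 and 87.1. MRPL15 rose by 1.20 (SE 0.17) and MRPL46, of the central protuberance, by 1.19 (SE 0.19). The small subunit proteins MRPS22 and MRPS23 rose by 1.14 (SE 0.18) and 1.09 (SE 0.18), MRPS23 reaching 193 and 162 RPKM in TA, the highest values of any member there. MRPL32, whose protein is processed by the m-AAA protease before it joins the ribosome, rose by 1.09 (SE 0.18). Every TA library of these 8 genes lay above every RA library. With the annotated exons, 54.5% of MRPL2, 73.4% of MRPL46 and 26.6% of MRPS22 lie in exons of another coding gene.

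Of the 7 members called below 0, MRPL11 was the lowest. This protein of the stalk base stood at 53.4, 34.7 and 41.0 RPKM in RA and at 13.0 and 25.6 in TA, a ratio of -1.21 (SE 0.30, adjusted p = 0.0183). MRPL51, the highest member in RA, fell to 71.5 and 95.1 RPKM in TA, a ratio of -0.99 (SE 0.23, adjusted p = 0.0144). MRPL55 (-0.97, SE 0.25), MRPL37 (-0.94, SE 0.25), MRPL42 (-0.92, SE 0.27), MRPS16 (-0.86, SE 0.19) and MRPS6 (-0.76, SE 0.23) completed the list. Their TA and RA libraries did not overlap, but TA replicate 1 was the lower in each of the 7. MRPL37, for one, had 34.0 RPKM there and 55.8 in TA replicate 2. Without TA replicate 1 all 7 ratios were closer to 0 and none was called. MRPL33 had a ratio of -0.83 (SE 0.28, adjusted p = 0.0511).

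**Figure D3:**
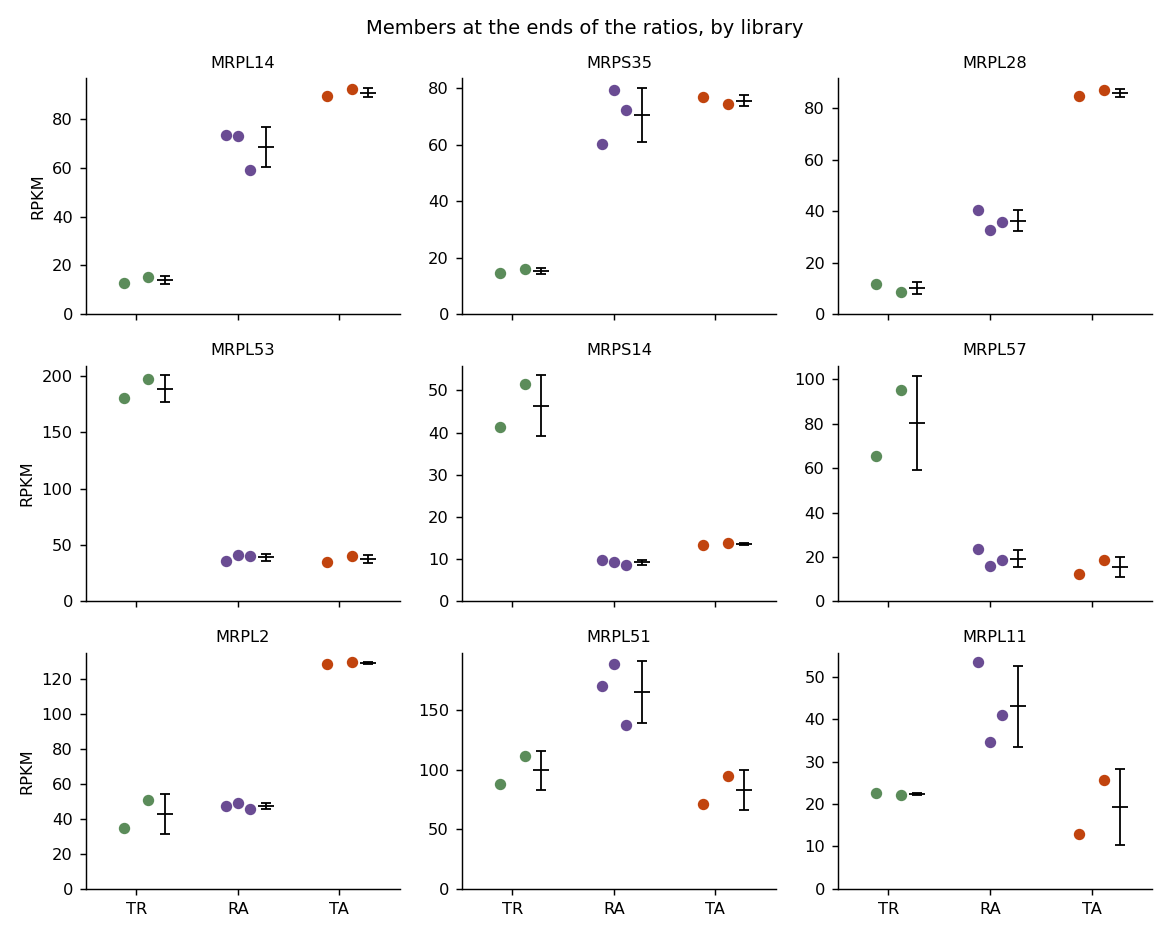
RPKM of 9 members in each TR, RA and TA library (points), with the mean and SD of the libraries beside them in black, on axes that start at 0. MRPL14, MRPS35 and MRPL28 are lowest in TR, MRPL53, MRPS14 and MRPL57 are highest in TR, MRPL2 is highest in TA, and MRPL51 and MRPL11 are highest in RA.

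Over both steps, the ratio of TA to TR is computed without RA values, which enter the fit only through the error and the adjusted p. The median of the members was 0.59, against -1.08 over all expressed genes, a difference of 1.67. Called above 0 were 37 members (48.1%), against 17% of all genes, and called below 0 were 7 (9.09%), against 57.5%. With centred libraries 68 members were above, where 38.0% of all genes were, and 5 below, where 35.3% were. The highest was MRPL28 (chr16:416969-421289, minus strand, hg19), from 11.6 and 8.57 RPKM in TR to 84.8 and 87.1 in TA, a log2 ratio of 3.09 (SE 0.21, adjusted p = 4.06e-06) or 8.53-fold. Next came MRPL32 (2.70, SE 0.20), MRPL14 (2.69, SE 0.19), MRPL1 (2.59, SE 0.30), MRPL13 (2.57, SE 0.25), MRPS9 (2.55, SE 0.18), MRPL21 (2.48, SE 0.24) and MRPS23 (2.46, SE 0.19). MRPL32 went from 17.2 and 19.3 to 134 and 106 RPKM, and MRPS9 from 11.5 and 11.2 to 75.1 and 60.2. TR and TA libraries lay far apart in both. MRPL57 (-2.36, SE 0.29), MRPL53 (-2.32, SE 0.18), MRPS24 (-2.21, SE 0.29), MRPS25 (-1.79, SE 0.20) and MRPS14 (-1.75, SE 0.19) were below 0 with either scaling. MRPL55 (-1.28, SE 0.27) and MRPS16 (-1.12, SE 0.21) were called below 0 in RPKM. Neither was called once libraries were centred, where their ratios were -0.11 and 0.052. MRPS21, at -0.56 (SE 0.29), was not called, and its ratio was 0.61 with centred libraries.

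The median index of RA against TR was 0.50 over the large and 0.35 over the small subunit, and the difference between them ranged from -0.00 to 0.33 over the 6 pairs of libraries. For TA against RA the medians were 0.43 and 0.40, with a difference from -0.07 to 0.12. For TA against TR they were 0.68 and 0.49. The difference, with medians taken anew in each of 4 pairs that share libraries, was 0.21 to 0.38. In fits with 1 library left out it was 0.11 to 0.30. No test is given, because genes are not replicates of a subunit. In level, the large subunit median minus that of the small subunit was -0.13 and -0.16 on the log2 scale in TR, 0.10, 0.14 and -0.12 in RA, and 0.28 and 0.32 in TA. The order of the subunits therefore differed between TR and TA in every library, and between the libraries of RA. In counts of calls, 22 large subunit genes were above 0 and 3 below in RA against TR, and 12 and 6 of the small subunit. In TA against RA the counts were 19 and 5 for the large and 12 and 2 for the small subunit, and in TA against TR 26 and 3 against 11 and 4. Moving MRPS18A and MRPS30 to the large subunit and leaving out MRPS36 gave medians of 0.50 and 0.23 for RA against TR, 0.46 and 0.40 for TA against RA, and 0.68 and 0.54 for TA against TR.

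Proteins with a bacterial counterpart and those without were compared in the same way. In RA against TR 19.2% of all genes tested were called above 0 and 48.0% below. The median was 0.35 for the 48 members with a counterpart, of which 19 (39.6%) were called above 0 and 5 (10.4%) below. It was 0.63 for the 29 without, of which 15 (51.7%) were called above and 4 (13.8%) below. The gap lay in the small subunit, with medians of 0.09 over 18 genes and 0.83 over 11, while in the large subunit it ran the other way, 0.54 over 30 genes and 0.34 over 18. For TA against RA the medians were 0.41 and 0.42. By the place of the protein in the large subunit, in lists drawn up after the values were seen, TA against RA had a median of 0.63 over 8 proteins of the exit tunnel, all with a ratio above 0 and 4 of them called. It was 0.61 over 7 proteins of the central protuberance, with 4 called above 0 and 1, MRPL55, called below. Over the 5 stalk proteins it was -0.05, with MRPL54 (0.58, SE 0.18) called above 0, MRPL11 called below and 3 not called. Of all genes tested, 6.66% were called above 0 in TA against RA and 29.2% below.

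The first 2 comparisons share the RA libraries, so an error in RA moves their ratios in opposite directions, and the values of single members are set side by side with no count. MRPL28 had 1.85 in RA against TR and 1.25 in TA against RA, MRPL32 had 1.61 and 1.09, and MRPS23 had 1.37 and 1.09. MRPL37, a large subunit protein without a bacterial counterpart, had 1.28 and -0.94, with 39.0 and 30.3 RPKM in TR, 94.6, 74.2 and 84.0 in RA, and 34.0 and 55.8 in TA. MRPL17 had -1.18 and 0.97, with 83.2 and 102 RPKM in TR, 41.3, 39.4 and 41.0 in RA, and 78.4 and 80.3 in TA. In both genes the RA libraries overlapped with neither the TR nor the TA libraries. MRPS12, a protein of the decoding centre, was called in neither comparison and stood at 39.2 and 44.6 RPKM in TR, 44.3, 41.8 and 49.5 in RA and 28.2 and 41.1 in TA.

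Genes that work with this particle were counted by the same calls, for which the shares over all expressed genes were 19.2% above and 48.0% below in RA against TR and 6.66% and 29.2% in TA against RA. Of 6 mitoribosomal proteins without an MRP symbol, 2 were above 0 and 1 below in RA against TR. DAP3, a GTP-binding protein of the small subunit, was at 1.19 (SE 0.16) and PTCD3 at -1.23 (SE 0.16). In TA against RA 2 were above and 0 below, with ICT1, a peptidyl-tRNA hydrolase in the large subunit, at 1.09 (SE 0.17). Of 14 translation factors, 3 were above and 2 below in RA against TR and 2 above and 3 below in TA against RA. The elongation factor TUFM (1.44, SE 0.20) and the inner membrane insertase OXA1L (1.28, SE 0.20) led the first, and the release factor MTRF1L (-1.94, SE 0.24) was the lowest. The 22 genes of ribosome assembly and rRNA modification had 5 above (22.7%) and 12 below (54.5%) in RA against TR, shares near those of all genes, and 8 above and 0 below in TA against RA. With centred libraries they had 8 above in RA against TR, where 35.4% of all genes were, and 6 below, where 33.7% were. Examples are the rRNA methyltransferases MRM1 (-3.35, SE 0.25) and RNMTL1 (-1.42, SE 0.17) and the helicase DDX28 (-2.17, SE 0.18). Of 8 genes of mitochondrial transcription and RNA stability, 3 were above and 2 below in RA against TR, with LRPPRC (1.25, SE 0.20) and its partner SLIRP (0.88, SE 0.22) above and the elongation factor TEFM (-1.93, SE 0.27) below. In TA against RA 1 was above and 0 below. Of 20 genes for charging mitochondrial tRNAs, 4 were above (20%) and 9 below (45%) in RA against TR, which is near the shares of all genes, and 3 above and 4 below in TA against RA. AARS2 (-2.45, SE 0.17), GATC (-1.51, SE 0.17) and MARS2 (-1.46, SE 0.20) were lowest in the former.

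**Figure D4:**
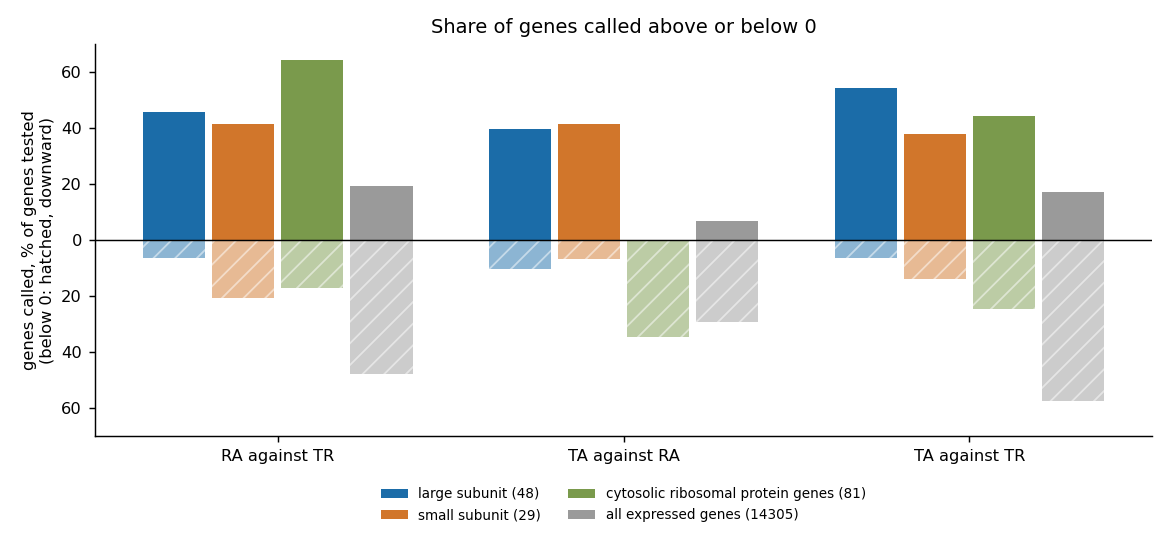
Percent of genes called above 0 (solid, upward) and below 0 (hatched, downward) in the 3 comparisons, for large and small subunit genes, cytosolic ribosomal protein genes and all expressed genes. In RA against TR 6.25% of the large and 20.7% of the small subunit genes are called below 0. In TA against RA none of the cytosolic ribosomal protein genes is called above 0, while 31 of the 77 members are.

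The cytosolic ribosomal protein genes are the most similar set in function. Of 86 listed, 81 were expressed, with a median of 362 RPKM in RA against 45.2 for the members. In RA against TR they were called above 0 more often than below, as the members were. The counts were 52 (64.2%) above and 14 (17.3%) below, against 19.2% and 48.0% of all genes. In TA against RA 0 were called above and 28 (34.6%) below, against 29.2% of all genes. Their median was -0.73, where the members had 0.41. With centred libraries 0 of the 81 were above, where 19.0% of all genes were, and 7 below, where 9.81% were. The difference between the sets was not tested. Cytosolic ribosomal protein mRNAs are known to begin with a C and a run of pyrimidines, the TOP motif, which controls their translation. In the annotated starts, a C followed by 4 pyrimidines was found in 44 of 68 cytosolic genes (64.7%), in 5 of 69 members (7.25%) and in 5.21% of expressed genes. The members with these letters are shown beside the 3 cytosolic genes of highest RA that have them, as 20 bases before the annotated start in lower case and the first 5 bases after it in capitals, on GRCh38.p14.
MRPL44, chr2:223957443-223957467, plus strand: gttccgtcttccatcgttttCTCTC
MRPL45, chr17:38297148-38297172, plus strand: ctcagctcccttcccggcggCCTTT
MRPL53, chr2:74472676-74472700, minus strand: cacttccgcctgcacgagttCTTCC
MRPS27, chr5:72320236-72320260, minus strand: tccgtaacccgttggctgttCCTTT
MRPS33, chr7:141014948-141014972, minus strand: gagccgggtagagggcgggcCTTCC
RPS6, chr9:19380232-19380256, minus strand: gcgctaagcggaagttggccCTCTT
RPL37A, chr2:216498824-216498848, plus strand: cctgcgcaccgcgtctcttcCTTTC
RPS18, chr6:33272055-33272079, plus strand: gatatcgcgtcacttccgctCTCTC
Among these 5 members the index of TA against RA was 0.82 (SE 0.15) for MRPL44, which was called, 0.29 (SE 0.23) for MRPL45, -0.05 (SE 0.17) for MRPL53, 0.42 (SE 0.19) for MRPS27 and -0.22 (SE 0.25) for MRPS33. For RPS6, RPL37A and RPS18 it was -0.62 (SE 0.38), -1.08 (SE 0.37) and -0.95 (SE 0.42), none of them called. The 5 members thus lay on both sides of 0, and none was as low as these cytosolic genes. In MRPL53 and MRPS33 the 5 capitals are also the first bases of a match to the ETS letters in reverse complement. The start used in HCT116 cells was not measured.

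The members share features that the rule did not use. Their exons were short, with a median of 1323 bases in the table against 3022 over expressed genes, and the range ran from 518 (MRPL33) to 7827 bases (MRPL19). The median protein had 194 residues. The noncoding share of the canonical transcript was 48.0%, close to 49.6% over expressed genes, and it was 44.5% in the large and 55.2% in the small subunit. Across the 77 members, Spearman's rho between the noncoding share and TA against RA was -0.26, and over 13096 expressed genes it was -0.18. For RA against TR rho was -0.16 and 0.079, and for TA against TR -0.28 and 0.0067. These are across genes, which share the same libraries and are not replicates. The genes lie on 21 chromosomes. The start of another coding gene lay head to head within 1000 bases for 17 members (22.1%), against 10.5% of 13129 expressed coding genes. MRPL46 and MRPS11 face each other at a distance of 63 bases. MRPL46 stood at 24.1 ± 4.08 RPKM (SD, n = 2) in TR, 26.3 ± 3.64 (n = 3) in RA and 59.9 ± 6.50 (n = 2) in TA, and MRPS11 at 15.5 ± 0.602, 13.4 ± 1.64 and 21.4 ± 1.97. Others face a subunit gene of respiratory complex I, MRPL47 with NDUFB5 and MRPL36 with NDUFS6, both at 41 bases. MRPL47 and NDUFB5 were at 22.2 and 20.4 RPKM in TR, 61.3 and 89.5 in RA and 83.3 and 154 in TA, so the mean of each was higher at each step. MRPL36 was at 32.2, 31.4 and 33.6 RPKM and NDUFS6 at 54.1, 93.01 and 162. Partners also parted in many pairs. MRPL27 and EME1, a nuclease subunit, were at 48.6 and 65.6 RPKM in TR and at 81.5 and 11.5 in RA. In mean RA, LRRC46, IGHMBP2, ZNF189, SLC7A7, APBA3, SKA3, SARS2 and HELQ were also below the member they face. TCP1, MITD1 and FAU were above theirs.

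Many members have near copies in the genome. For 36 of them the annotation names at least 1 pseudogene, 79 in all, with 8 for MRPS21 and 5 each for MRPL42, MRPL57 and MRPS36, and the counting could split reads between copies. The values of these genes are uncertain to that extent. MRPS21 stood at 46.7 and 84.9 RPKM in the TR libraries, the widest gap between them of any member on the log2 scale.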

How the data were processed

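The 7 libraries of HCT116 cells were grouped by their labels into TR (2, GRO-seq), RA (3, RNA-seq) and TA (2, polysomes). The submitters' processing notes name CASAVA, TopHat, HTSeq and hg19. What the authors deposited is RPKM per gene, with a column for each replicate. Counting mode, strand setting and annotation are not given in the sources used here, and raw reads were not used. The labels name no run or date, so no within-batch values could be given.

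Expressed genes, those whose mean reached 1 RPKM in TR, RA or TA, were tested by limma 3.58.1 with a trended prior (R 4.3.3) after 0.1 was added to RPKM and log2 taken. A single model held the 7 libraries, and p-values were adjusted over 14305 genes (Benjamini-Hochberg, threshold 0.05). Fold changes are on that scale, which understates those of low genes. The fit was tested on simulated data. Library sizes were recovered as those that turn every RPKM into a whole number of reads (within 0.01). Members were placed with GENCODE release 44 lifted to GRCh37, and promoters came from RefSeq (GRCh38.p14). Tables and plots were made in Python 3.11.15 with pandas 2.3.3 and matplotlib 3.10.9. The members and lists were chosen with earlier results of these data known. Named are the 8 highest and the 8 lowest members of each comparison, up to 8 called against the larger direction, the 5 highest and the 5 lowest in RA, and up to 3 genes per other list. Members named elsewhere were chosen after their values were seen. Alternatives covered scaling, pseudocounts, filters, a replicate block, the groups in the fit, the trend, the subunit of a symbol and each library left out. A crossed block, the values without MRPS24 and those without overlapped members were added after seeing the data.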

Additional observations from a re-analysis of the deposited data

How the results depend on the processing

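Centring each library on its median gene, which shifts all genes alike, gave 60 members called above 0 in RA against TR. It gave 52 called above and 0 below in TA against RA, and 68 called above in TA against TR. Centring turned ratios below 0 to above 0 for 15, 14 and 12 members in these comparisons, and none the other way. In TA against TR these included MRPS16, at 0.052, and MRPS21, at 0.61. A fit with the replicate number as a block left 8 above and 1 below in TA against RA. The labels do not say that equal numbers mark 1 culture, and differences between libraries 1 and 2 correlated across genes at 0.085 for TR and RA, 0.0094 for TR and TA and -0.50 for RA and TA, so the numbers were not taken to pair the samples. With the TA numbers crossed the counts were 23 above and 6 below. Fitting the RA and TA libraries alone left 2 below in TA against RA. With 1 library left out, the counts ranged from 24 to 34 above and 6 to 10 below in RA against TR, from 13 to 31 and 0 to 7 in TA against RA, and from 34 to 40 and 7 to 10 in TA against TR. The median of the large minus that of the small subunit, 0.15, 0.03 and 0.19 in the 3 comparisons, then ranged from 0.02 to 0.24, from -0.12 to 0.036 and from 0.11 to 0.30, and without overlapped members it was 0.093 in TA against TR. The SD among members, 1.03 in TR, 1.04 in RA and 1.16 in TA, was 0.98 in RA and 1.10 in TA with a pseudocount of 1, 0.90 and 0.99 without MRPS24, and 0.97, 0.85 and 0.91 without overlapped members. For the blocks, the fits of RA and TA alone and those with 1 library left out, shares over all genes are not given. A general loss of calls cannot be told apart there from one among the members. TR libraries hold the fewest reads.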

Other observations

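The table also listed pseudogenes of members under symbols of their own. MRPL45P2 stood at 12.5 and 16.03 RPKM in TR, at 1.16, 1.97 and 1.74 in RA and at 0.651 and 0.863 in TA. MRPS31P5 stood at 6.41 and 9.50 RPKM in TR, at 2.42, 2.48 and 3.05 in RA and at 0.762 and 1.31 in TA. MRPL42P5 had 2.65 and 2.40 RPKM in TR and 0.148 or less in the RA and TA libraries. Its RA and TA values lie near 0 and rest on few reads. In MRPL45P2 and MRPS31P5 every TR library lay above every RA library and every RA library above every TA library, and in MRPL42P5 both TR libraries lay above the rest. The parent genes MRPL45, MRPS31 and MRPL42 were called above 0 in RA against TR.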
